A study of Rattus norvegicus with 16 samples.

Results

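The genes described here are 10 alpha- and beta-tubulin isotypes of the rat (Tuba1a, Tuba1b, Tuba1c, Tuba4a, Tubb2a, Tubb2b, Tubb3, Tubb4b, Tubb5 and Tubb6), found by gene name among 32623 gene records. They were chosen on the liver contrast, with the response of Tubb6 and Tuba1b already known, so every liver value below, NDEA against control, is a description and not a test. The tissues were whole liver and bone marrow. The rats were female and of the Big Blue strain, which carries a transgenic vector with the cII and lacI reporter genes for mutation assays; all groups share this transgene. NDEA is N-nitrosodiethylamine, a nitrosamine that oxidation in liver cells turns into an alkylator of DNA, and that causes liver tumours in rodents. The 4 groups were liver of rats gavaged with 10 mg/kg/day NDEA, liver of rats gavaged with 0 mg/kg/day, and bone marrow of rats on the same doses, each with 4 libraries. The rats were 6 weeks old on arrival, had 1 week of acclimation, were dosed for 28 days and were sampled 3 days after the last dose. The labels do not say which cage a rat came from or whether a liver and a marrow library came from the same rat, so p-values measure the spread between the 4 libraries of a group.

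Tubulin is the protein of microtubules. An alpha and a beta chain, each encoded by a small gene family, form the dimer that polymerises, and the isotypes differ mainly in their tails, where enzymes and microtubule-binding proteins act. Liver cells use microtubules to secrete plasma proteins and bile components, and dividing cells rebuild them into the mitotic spindle. Cells also hold tubulin in check through autoregulation: free dimer triggers the decay of tubulin mRNAs during translation.

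Liver libraries held 5000844 to 6863592 counts and marrow libraries 2162182 to 5705705, with the shallowest being marrow control 1. Genes detected were fewest in marrow NDEA 4 (9101) and marrow NDEA 3 (10144), against 10920 to 11699 in the other marrow libraries. The hepatocyte marker list summed to 99156 to 120377 CPM (counts scaled to a library of 1e+06) in NDEA liver and 112081 to 142450 CPM in control liver, with none of its 11 genes at 0. In marrow it summed to 21.0 to 89.2 CPM in NDEA rats and 47.8 to 90.1 CPM in control rats. The neutrophil list summed to 22184 to 37139 CPM in NDEA marrow and 22791 to 32425 CPM in control marrow, so both tissues match their labels. The kit reads the 3' end of polyadenylated RNA, giving about 1 count per transcript, so CPM was compared between genes without a length correction. This takes every gene's 3' end to be counted equally well, which was not checked. Col1a2 had 0 counts in all 4 groups, and Ltf, of the neutrophil list, had 0 in both marrow groups. Orders, shares and ratios between isotypes, and levels near 0, hold only under that assumption. CPM is on the scale of each tissue's own libraries. Summed over the 10 genes, tubulin made up 0.0585% to 0.0775% of all counts in NDEA liver and 0.0424% to 0.0556% in control liver. In marrow it made up 0.173% to 0.306% in NDEA rats and 0.246% to 0.584% in control rats.

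All 10 genes have a promoter entry in RefSeq (build GRCr8), 250 bases before to 50 after the gene's start. They were searched on both strands for CCAAT (the box bound by NF-Y), GGGCGG (the box bound by Sp1), TATAAA (the core promoter box of that sequence) and for TTTGAA and TTCGAA, core forms of the element through which many cell cycle genes are repressed outside division. Shown here are the 3 genes that were higher in NDEA liver and then the 2 that were lower; each is written 5′ to 3′ in the direction of transcription, with capitals on every motif match. The windows are chr18:63213037-63213336 (plus strand), chr7:131972538-131972837 (minus), chr20:2917327-2917626 (plus), chr17:31001936-31002235 (plus) and chr9:84162535-84162834 (minus).
Tubb6: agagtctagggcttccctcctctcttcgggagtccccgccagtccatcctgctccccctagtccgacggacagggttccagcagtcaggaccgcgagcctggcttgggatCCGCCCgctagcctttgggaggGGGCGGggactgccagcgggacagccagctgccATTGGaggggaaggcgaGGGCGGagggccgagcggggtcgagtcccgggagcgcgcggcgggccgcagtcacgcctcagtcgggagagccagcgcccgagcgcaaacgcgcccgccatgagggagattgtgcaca
Tuba1b: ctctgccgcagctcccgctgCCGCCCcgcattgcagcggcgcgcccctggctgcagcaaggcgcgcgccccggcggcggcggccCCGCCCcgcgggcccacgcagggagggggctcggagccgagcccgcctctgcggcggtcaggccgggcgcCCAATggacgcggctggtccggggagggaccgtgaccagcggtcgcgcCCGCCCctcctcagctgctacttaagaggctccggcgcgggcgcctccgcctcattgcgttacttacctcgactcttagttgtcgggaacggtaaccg
Tubb5: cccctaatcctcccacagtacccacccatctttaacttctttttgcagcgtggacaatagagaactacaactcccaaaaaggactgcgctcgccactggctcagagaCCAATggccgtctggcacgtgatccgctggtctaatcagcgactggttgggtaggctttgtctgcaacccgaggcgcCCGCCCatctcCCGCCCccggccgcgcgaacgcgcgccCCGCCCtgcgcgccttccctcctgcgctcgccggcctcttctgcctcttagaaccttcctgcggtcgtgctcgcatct
Tubb2a: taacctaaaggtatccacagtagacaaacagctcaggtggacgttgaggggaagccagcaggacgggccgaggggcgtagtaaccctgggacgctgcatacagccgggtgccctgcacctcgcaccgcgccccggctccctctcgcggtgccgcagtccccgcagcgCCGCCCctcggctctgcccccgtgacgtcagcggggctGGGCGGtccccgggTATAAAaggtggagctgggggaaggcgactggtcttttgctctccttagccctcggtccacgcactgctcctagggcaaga
Tuba4a: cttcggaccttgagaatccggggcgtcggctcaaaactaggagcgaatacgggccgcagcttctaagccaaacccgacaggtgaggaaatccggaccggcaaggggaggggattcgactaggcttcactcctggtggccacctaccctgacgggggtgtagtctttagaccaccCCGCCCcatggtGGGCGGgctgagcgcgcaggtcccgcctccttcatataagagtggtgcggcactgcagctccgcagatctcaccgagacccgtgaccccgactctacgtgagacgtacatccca
CCAAT or its reverse complement ATTGG lay in 8 of the 10 promoters, against 37.5% of 33469 promoters of this length. Tubb6 held it in reverse with its first base 85 bases before the start, Tuba1b at 96 bases and Tubb5 at 143 bases before the start, while Tubb2a and Tuba4a did not hold it. Tuba1a, Tuba1c, Tubb2b, Tubb3 and Tubb4b, which were not among the higher or lower genes, held it too, Tubb4b with 4 matches. GGGCGG or its reverse complement lay in 9 of the 10, against 33.1% of all promoters, with 3 matches each in Tubb6, Tuba1b and Tubb5. TATAAA was in 2 of the 10 (Tubb2a and Tubb4b), against 14.2% of all. TTTGAA was in 2 of the 10 (Tuba1c and Tubb4b) and TTCGAA in 1 of the 10 (Tuba1c), against 18.3% and 1.69% of all. The 10 promoters held 53% to 75.7% G or C, against a mean of 52.7% over all promoters, and share of G and C was not matched in these counts. A match describes letters in a window and nothing about binding.

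In liver after NDEA, the beta isotype Tubb6 and the widely used chains Tuba1b (alpha) and Tubb5 (beta) stood higher, while Tuba4a and Tubb2a stood lower. Tuba1a, Tubb2b and Tubb4b had intervals that spanned 0, and Tuba1c and Tubb3 were too low to fit. Of the 8 members that passed the filter on low counts, 3 were called higher and 2 lower at an adjusted p under 0.05 (limma). Among all 9668 genes fitted, 6.61% were called, 2.87% higher and 3.74% lower. Since the genes were chosen with this contrast known, nothing is read from their count.

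Tubb6 encodes a beta chain found at low levels in many tissues and known to increase in regenerating muscle. It lies on chromosome 18 at position 63130542 of the deposited table, whose build is not named. It had 32.9, 29.2, 24.5 and 37.9 CPM in the NDEA livers, against 2.50, 3.50, 0.901 and 0 CPM in the control livers. Every NDEA library stood above every control library, and control liver 4 had no count of the gene. The counts behind these values were 154 to 253 per NDEA library and 0 to 20 per control library. The ratio of the group means was 18.0, and the fitted log2 fold change was 4.93 (SE 1.11, 95% interval 2.62 to 7.24). The fitted value depends on how the 0 is treated: without control liver 4 it was 3.85.

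Tuba1b, on chromosome 7 at position 140614752, encodes the most widely used alpha chain. It had 257, 282, 259.9 and 232 CPM in the NDEA livers, against 143, 111, 115 and 105 CPM in the control livers. The groups were far apart and tight, with no overlap, and the log2 fold change was 1.12 (SE 0.13). Tubb5, on chromosome 20 at position 3422461, encodes the beta chain that most cell types use. It had 149, 127, 103 and 119 CPM in the NDEA livers, against 69.5, 57.1, 58.1 and 72.5 CPM in the control livers. These groups did not overlap either, and the log2 fold change was 0.94 (SE 0.17). Tubb6, Tuba1b and Tubb5 were the 3 members of 10 whose liver groups did not overlap, beside 12.5% of all genes fitted. A fit of all 16 libraries together kept the size of the Tubb5 change (0.94) but left its adjusted p at 0.0772.

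Tuba4a, on chromosome 9 at position 82415605, encodes an alpha chain that lacks the C-terminal tyrosine in its gene and is abundant in muscle, platelets and nerve. It had 97.2, 42.0, 46.0 and 55.9 CPM in the NDEA livers, against 117, 122, 75.4 and 125 CPM in the control livers. NDEA liver 1 lay inside the control range, above control liver 3. The log2 fold change was -0.91 (SE 0.22). Tubb2a, on chromosome 17 at position 31493107, encodes a beta chain best known from nerve cells. It had 66.8, 159.5, 71.6 and 126 CPM in the NDEA livers, against 187, 137, 144 and 193 CPM in the control livers. NDEA liver 2 lay inside the control range and the other 3 NDEA libraries below it, with a log2 fold change of -0.75 (SE 0.21). These lower calls depended more on single libraries than the higher ones: Tubb2a lost its call in 4 of the 8 fits that left out a library (adjusted p 0.0786 without control 1, 0.0979 without control 4, 0.128 without NDEA 1 and 0.12 without NDEA 3), and Tuba4a in 1 (0.0528 without NDEA 2). RefSeq places a near copy, Tubb2al1, beside Tubb2a on GRCr8; it has no record by that name in the table, so how reads alike between the copies were assigned is uncertain.

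Tubb4b, a widely expressed beta chain that also serves cilia, had 61.6, 84.1, 57.9 and 41.2 CPM in the NDEA livers, against 59.3, 41.8, 38.0 and 52.5 CPM in the control livers. The groups overlapped, with a log2 fold change of 0.30 (95% interval -0.16 to 0.75). Tuba1a, the alpha chain of developing neurons, ranged from 1.41 to 11.8 CPM in NDEA livers and from 2.80 to 8.59 CPM in control livers, with a log2 fold change of -0.26 (95% interval -1.64 to 1.13). Tubb2b, another beta chain of developing brain, ranged from 1.13 to 10.5 CPM in NDEA livers and from 1.41 to 7.88 CPM in control livers, with a log2 fold change of 0.25 (95% interval -1.44 to 1.93). Both intervals are wide enough to hold a change of the size seen for Tuba1b. Tuba1c had 0 counts in the 4 NDEA livers, which allows up to 0.121 CPM over the group, and 1 count in the control livers. Tubb3, the beta chain used as a marker of neurons, had 7 counts in NDEA livers and 6 in control livers.

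**Figure D1:**
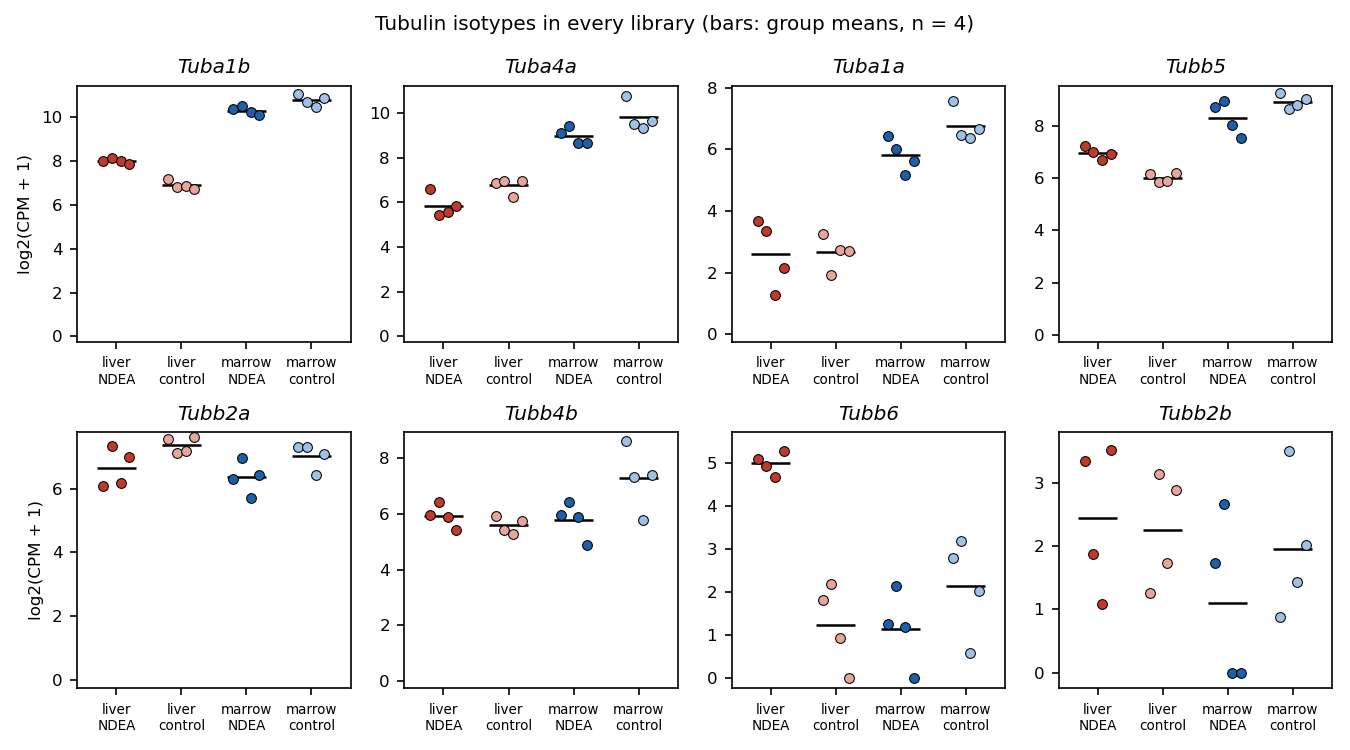
Level of the 8 tubulin isotypes that passed the filter, as log2(CPM + 1), in each of 16 libraries; points are libraries, in replicate order from left to right, and bars are means over 4. In liver the NDEA points of Tubb6, Tuba1b and Tubb5 all lie above the control points; in marrow the NDEA and control points of every isotype overlap.

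The order of the isotypes in liver therefore differed between the groups. In NDEA liver Tuba1b led at 258 ± 20.1 CPM, followed by Tubb5 at 125 ± 19.5, Tubb2a at 106 ± 44.7, Tubb4b at 61.2 ± 17.7, Tuba4a at 60.3 ± 25.3 and Tubb6 at 31.1 ± 5.69 CPM (SD, n = 4 each). In control liver Tubb2a led at 165 ± 28.9 CPM, followed by Tuba1b at 119 ± 16.5, Tuba4a at 110 ± 23.2, Tubb5 at 64.3 ± 7.84 and Tubb4b at 47.9 ± 9.77 CPM (SD, n = 4 each). In NDEA liver Tuba1b did not overlap with Tubb5, and Tubb6 overlapped with neither Tuba4a above it nor Tuba1a below it; Tubb5, Tubb2a, Tubb4b and Tuba4a each overlapped with their neighbours. In control liver the ranges of Tubb2a and Tuba1b, of Tuba1b and Tuba4a, and of Tubb5 and Tubb4b overlapped, while Tuba4a stood above Tubb5 in every library. Tuba1a, Tubb2b and Tubb6 formed the overlapping low end in control liver, at 5.63 ± 2.36, 4.52 ± 3.13 and 1.73 ± 1.57 CPM (SD, n = 4 each).

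Shares of the summed counts of a class do not depend on scaling between libraries, but they restate the same counts and are no separate support. Within a class, a rise of any isotype lowers the shares of the others. Tuba1b made up 70.2%, 84.6%, 84.6% and 79.7% of alpha-tubulin counts in the NDEA livers, against 53.2%, 47.0%, 58.7% and 44.7% in the control livers. Tuba4a took most of the rest, at 18.3% ± 6.13 in NDEA livers and 46.7% ± 6.95 in control livers (SD, n = 4 each). Among beta isotypes Tubb6 made up 10.3%, 7.3%, 9.5% and 11.3% in the NDEA livers, against 0.8%, 1.4%, 0.4% and 0% in the control livers. Tubb5 averaged 38.4% ± 6.51 in NDEA livers and 22.7% ± 0.922 in control livers, and Tubb2a 31.5% ± 8.75 in NDEA livers and 58.1% ± 1.98 in control livers (SD, n = 4 each). The shares of Tuba4a and Tubb2a did not overlap between the liver groups, whereas their CPM did. The beta composition was much tighter among control livers than among NDEA livers. The sums pool members with estimates on both sides of 0. Alpha isotypes summed to 324 ± 32.3 CPM in NDEA livers and 234 ± 29.2 CPM in control livers, a ratio of 1.39. Beta isotypes summed to 329 ± 59.6 CPM in NDEA livers and 284 ± 44.2 CPM in control livers, a ratio of 1.16 (SD, n = 4 each).

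**Figure D2:**
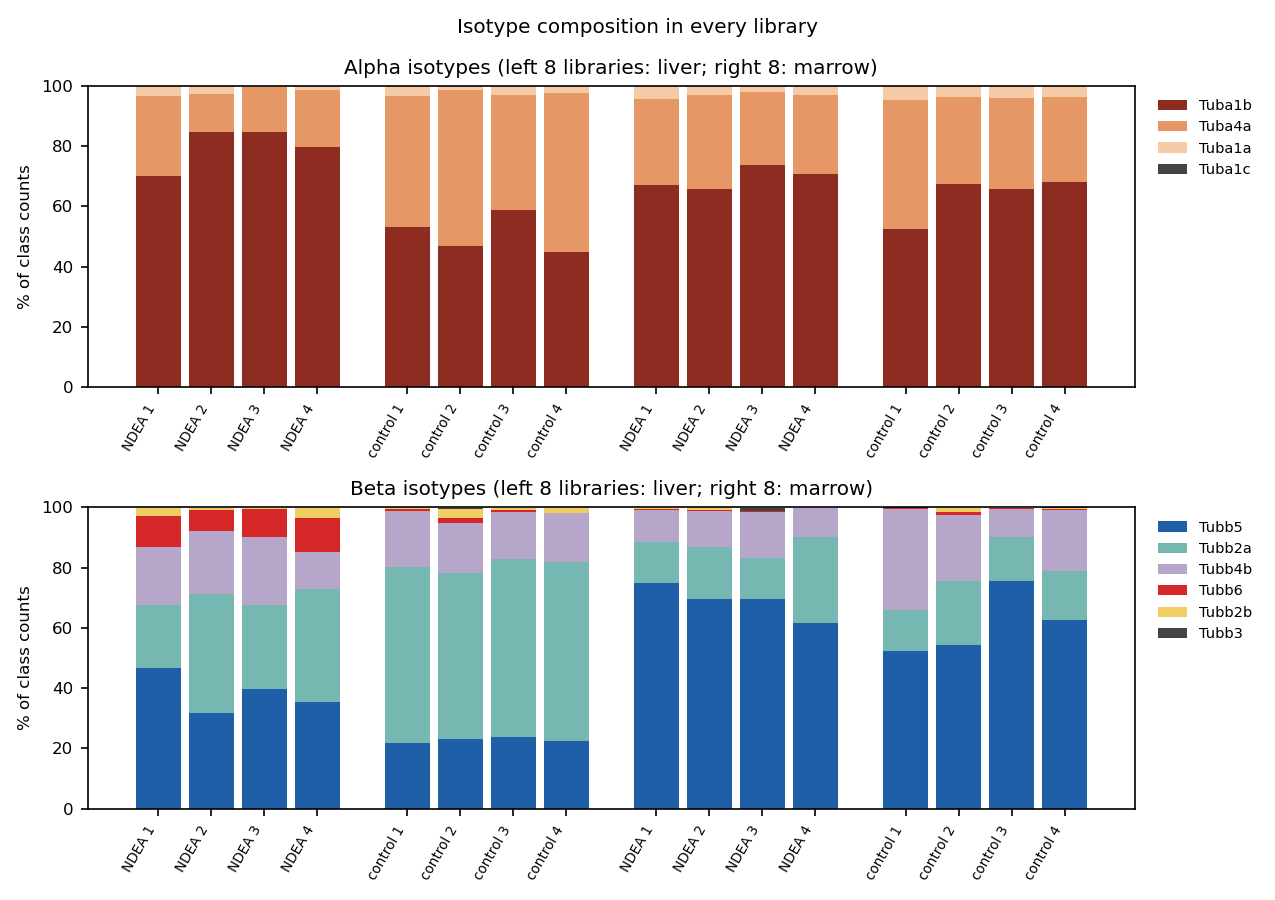
Share of each isotype in the alpha-tubulin counts (top) and beta-tubulin counts (bottom) of each library, in percent; the left 8 bars are liver and the right 8 marrow, NDEA libraries left of control libraries. In liver Tuba1b makes up 70.2% to 84.6% of alpha counts in NDEA rats and 44.7% to 58.7% in controls, and the Tubb6 band reaches 7.3% to 11.3% of beta counts in NDEA rats.

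In marrow no isotype was called after NDEA, and this contrast was not used to choose the genes. All 8 fitted members had an estimate below 0, with a median log2 fold change of -0.89 beside -0.10 over all 9239 genes fitted, of which 55.7% were below 0. Called genes were 0 of 9239 (limma-voom, 0%), as with limma-trend, where 0 were called too; 1336 genes (14.5%), among them 6 of the 8 members, had an unadjusted p under 0.05, all 6 lower. The count of 0 depends on the libraries and on the fit. Without control marrow 3, 323 genes were called, among them Tubb4b (log2 fold change -1.98, limma adjusted p = 0.0081). With all libraries kept, a fit with the replicate number as a block called 251 genes, among them Tubb4b, Tuba1a and Tuba4a, all lower. The fit of all 16 libraries called 69 genes and the fit with no filter on low counts 2, with 0 members in either. Without the 2 NDEA marrow libraries that detected the fewest genes, a choice made after seeing the data, 0 genes and 0 members were called.

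Tubb4b had the largest estimate among the well-counted members, -1.47 (SE 0.44, limma adjusted p = 0.247). It had 60.5, 83.5, 57.6 and 28.5 CPM in the NDEA marrows, against 388, 158, 54.1 and 167 CPM in the control marrows. Control marrow 3 lay below 3 of the 4 NDEA libraries and control marrow 1 far above all others. Tuba4a had 561, 699, 401 and 408 CPM in the NDEA marrows, against 1776, 732, 649 and 801 CPM in the control marrows, a log2 fold change of -0.85 (SE 0.29, limma adjusted p = 0.252). Here NDEA marrow 2 reached above control marrow 3, and the shallowest library, control 1, was again the highest. Tuba1a had 85.7, 63.1, 35.3 and 48.0 CPM in the NDEA marrows, against 187, 88.3, 81.5 and 99.2 CPM in the control marrows, a log2 fold change of -0.93 (SE 0.31, limma adjusted p = 0.252). NDEA marrow 1 lay above control marrow 3.

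Tuba1b, the leading isotype of marrow, had 1320.2, 1457, 1225 and 1099 CPM in the NDEA marrows, against 2168, 1689, 1402 and 1916 CPM in the control marrows. The groups overlapped through NDEA marrow 2 and control marrow 3, and the log2 fold change was -0.48 (SE 0.21, limma adjusted p = 0.313). Tubb5 had 424, 493, 262 and 184 CPM in the NDEA marrows, against 606, 393, 438 and 519 CPM in the control marrows, a log2 fold change of -0.60 (SE 0.28, limma adjusted p = 0.334). Its lowest libraries, NDEA 3 and NDEA 4, are those that detected the fewest genes; their part in the result was not tested beyond leaving them out, when the Tubb5 estimate was -0.08. Tubb2a ranged from 51.5 to 124 CPM in NDEA marrows and from 84.8 to 157 CPM in control marrows (log2 fold change -0.67, SE 0.28, limma adjusted p = 0.3). Tubb6 ranged from 0 to 3.35 CPM in NDEA marrows and from 0.483 to 8.11 CPM in control marrows, with a log2 fold change of -1.77 whose 95% interval ran from -4.78 to 1.24. Tubb2b ranged from 0 to 5.37 CPM in NDEA marrows and from 0.838 to 10.4 CPM in control marrows (95% interval -5.82 to 0.92). Tubb3 had 28 counts in NDEA marrows and 17 in control marrows, and Tuba1c 5 in NDEA marrows and 0 in control marrows. None of the 10 members had groups without overlap in marrow, beside 5.6% of all genes fitted.

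**Figure D3:**
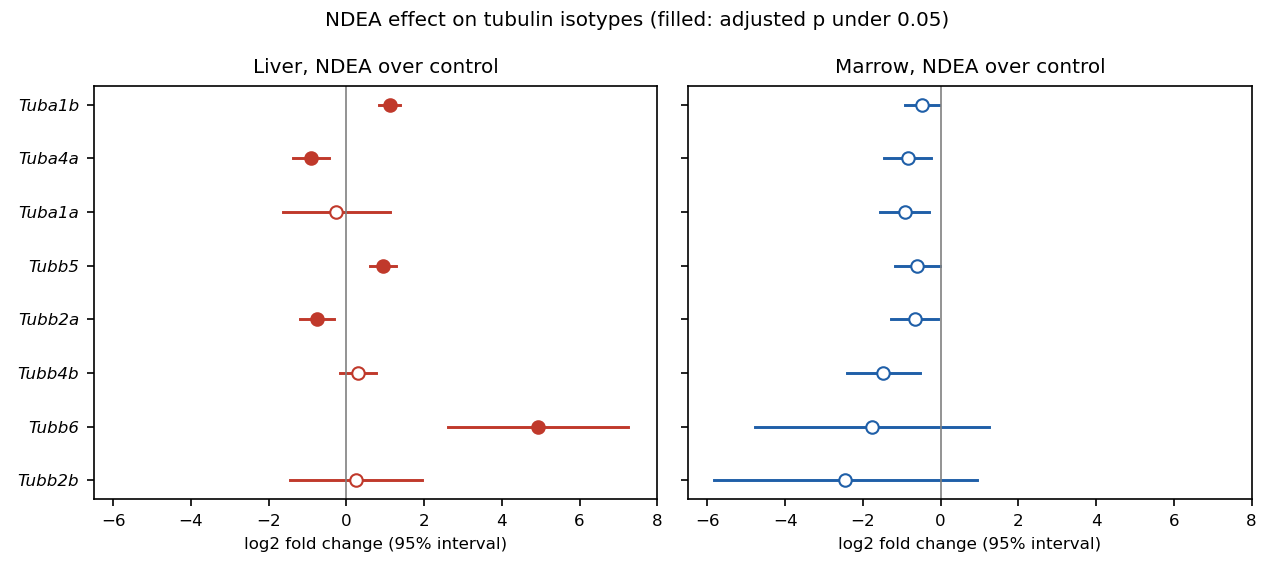
Fitted log2 fold change of each isotype, NDEA over control, with its 95% interval, in liver (left) and marrow (right); filled points passed an adjusted p of 0.05. Liver points lie on both sides of 0 and marrow points all lie below it, none filled; Tubb6 and Tubb2b have the widest intervals.

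The alpha isotypes summed to 1851 ± 301 CPM in NDEA marrow and 2897 ± 869 CPM in control marrow, and the beta isotypes to 488 ± 186 CPM in NDEA marrow and 823 ± 246 CPM in control marrow (SD, n = 4 each). Neither difference passed a two-sided exact permutation test (p = 0.0571 each, Benjamini-Hochberg adjusted 0.143 over 5 tests; the smallest p that 4 against 4 can give is 0.0286). The share of Tuba1b in alpha counts was 69.3% ± 3.64 in NDEA marrow and 63.4% ± 7.33 in control marrow, and that of Tubb5 in beta counts 68.9% ± 5.40 in NDEA marrow and 61.2% ± 10.6 in control marrow (exact permutation p = 0.257 each, adjusted 0.321, n = 4 each). The ratio of alpha to beta counts was 4.06 ± 0.946 in NDEA marrow and 3.52 ± 0.126 in control marrow (exact permutation p = 0.371, adjusted 0.371, n = 4 each). In whole tissue, fewer cells of a type and less RNA per cell cannot be told apart. Lists of other cell types did not all move the same way. The 8 skeletal muscle markers summed to 90.4 to 102 CPM in NDEA marrow and 194 to 554 CPM in control marrow, without overlap. The 13 stellate and fibroblast markers summed to 1292 to 3239 CPM in NDEA marrow and 2446 to 5771 CPM in control marrow, with overlap. None of the muscle genes was at 0 in either marrow group; of the stellate and fibroblast genes, Col1a2 and Lrat were at 0 in both. The 10 erythroid markers summed to 7980.2 to 9219.5 CPM in NDEA marrow and 9119 to 13277 CPM in control marrow, with none at 0. These erythroid ranges overlapped. The 9 endothelial markers lay higher, at 151 to 172 CPM in NDEA marrow and 117 to 156 CPM in control marrow, with overlap. Sums of the neutrophil, platelet, macrophage, lymphocyte and cholangiocyte lists overlapped between the marrow groups too. No marker gene was called in marrow. The part of these cells in the tubulin values was not tested.

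The difference between the liver effect and the marrow effect contains the liver contrast and is given as a description. Tubb6 differed by 6.84 on the log2 scale (SE 1.49), Tuba1b by 1.64 (SE 0.23) and Tubb5 by 1.58 (SE 0.38), all higher in liver. These 3 were the members called higher by limma in the treatment-by-tissue term, beside 2.07% of 11261 genes fitted, and the median of all genes in this term was 0.32. Tubb4b differed by 1.81 (SE 0.59) without a call. For Tuba4a and Tubb2a the estimates in the tissues were close, with differences of -0.06 (95% interval -0.95 to 0.84) and -0.03 (95% interval -0.85 to 0.79). These intervals are wide and neither gene was called in marrow, so a like effect in both tissues is not shown.

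Between the tissues of control rats, tubulin made up a far smaller share of the counts in liver than in marrow, with a different mix. Values are relative to each library, and the amount of mRNA in a tissue was not measured. This comparison did not choose the genes. Of the 8 members fitted, 5 were lower in liver and 1 higher, beside 33.4% of 10071 genes called lower and 32.8% called higher (limma). The median of the members was -2.04 on the log2 scale, against -0.02 over all genes. Tuba1a was lower by the most: its log2 fold change, liver over marrow, was -4.01 (SE 0.48, limma adjusted p = 2.58e-06). Tuba1b followed at -3.64 (SE 0.18, limma adjusted p = 2.31e-10), Tuba4a at -2.79 (SE 0.28, limma adjusted p = 4.99e-07), Tubb5 at -2.64 (SE 0.19, limma adjusted p = 1.30e-08) and Tubb4b at -1.39 (SE 0.42, limma adjusted p = 0.00908).

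Tubb2a went the other way, at 0.60 (SE 0.22, limma adjusted p = 0.0246). Its control values were 187, 137, 144 and 193 CPM in liver and 157, 155, 84.8 and 135 CPM in marrow. They overlapped on the scale of each tissue's own libraries, whereas the fit scaled the control libraries of both tissues together. Overlap on the scale of the fit was not checked. The call was lost when libraries were scaled by their totals alone (log2 fold change 0.28, adjusted p = 0.326) and without liver control 1, liver control 4, marrow control 3 or marrow control 4 (adjusted p 0.0544, 0.0595, 0.113 and 0.0639). Scaling by totals moved the median of all genes in this comparison to -0.34. Tubb6 (-1.44, 95% interval -3.83 to 0.94) and Tubb2b (0.47, 95% interval -1.29 to 2.22) were not called.

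**Figure D4:**
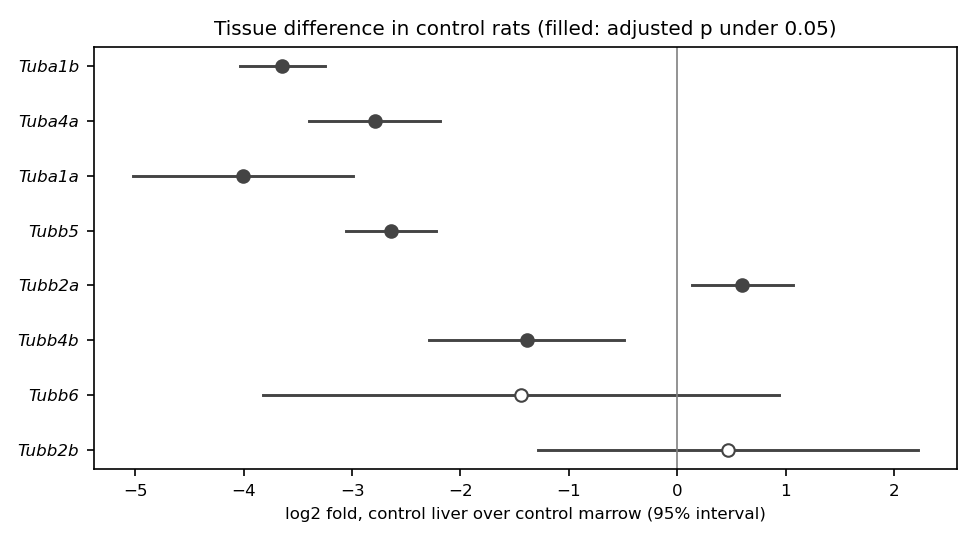
Fitted log2 fold of each isotype in control rats, liver over marrow, with its 95% interval; filled points passed an adjusted p of 0.05. The 3 alpha isotypes and Tubb5 lie between -2.64 and -4.01, Tubb4b at -1.39, and Tubb2a at 0.60 on the other side of 0.

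In control marrow the order was Tuba1b (1794 ± 327 CPM), Tuba4a (990 ± 528), Tubb5 (489 ± 93.7), Tubb4b (192 ± 141), Tubb2a (133 ± 33.7) and Tuba1a (114 ± 49.2), each as mean ± SD of 4 libraries. The ranges of Tuba1b and Tuba4a overlapped, as did those of Tubb4b, Tubb2a and Tuba1a; Tuba4a stood above Tubb5, and Tubb5 above Tubb4b, without overlap. Tubb2a thus led the beta isotypes of control liver but stood below Tubb5 and Tubb4b in the means of control marrow. The ratio of alpha to beta counts was 0.831 ± 0.0925 in control liver and 3.52 ± 0.126 in control marrow (SD, n = 4 each). Tuba1b, Tuba1a and Tuba1c are neighbours on chromosome 7, within 101 kb in the deposited table, yet their levels were far apart: Tuba1a averaged 5.63 ± 2.36 CPM in control liver, 22.5 kb from Tuba1b, and Tuba1c had 1 count. Tubb2a and Tubb2b, 51.5 kb apart on chromosome 17, likewise stood at 165 ± 28.9 and 4.52 ± 3.13 CPM in control liver (SD, n = 4 each).

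Of 10 further tubulin genes, 3 reached the fits. Tuba8, an alpha chain of muscle, testis and platelets, had 0 counts in all 8 liver libraries and 44.7 to 73.7 CPM in NDEA marrow and 47.1 to 82.1 CPM in control marrow. With libraries scaled by their totals alone, it was at least 484-fold lower in control liver than in control marrow, taking 3 counts over the liver group as the floor. That scaling moved the median of all genes in this comparison to -0.34, from -0.02 in the main fit. The bound therefore holds for that scaling only and was not computed on the scale of the fit. Tubg1, the gamma-tubulin that nucleates microtubules, was lower in control liver than in control marrow (log2 fold change -2.43, SE 0.30, limma adjusted p = 3.48e-06), as was Tube1, the epsilon-tubulin of centrioles (-2.25, SE 0.55, limma adjusted p = 0.00191). In marrow Tubg1 had 254, 202, 300.5 and 298 CPM in the NDEA rats, against 87.2, 139, 220.0 and 165 CPM in the control rats. Its estimate was thus opposite in sign to all 8 members, at 0.82 (SE 0.26, limma adjusted p = 0.247), without a call, and the groups overlapped. Tuba3a, Tuba3b, Tubb4a, Tubd1 and Tubg2 had 6 to 53 counts in all 16 libraries together, and Tubal3 and Tubb1 had none, although Tubb1 is the beta chain of platelets and the platelet markers summed to 1276 to 1552 CPM in NDEA marrow and 1111 to 1714 CPM in control marrow.

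Other genes of the microtubule system were taken as lists. Of the 21 records of the spindle list 17 were fitted in liver, and 8 rose and 0 fell. Only 1 of these 17 reached the filter's level (the CPM of 10 counts in the median library) in all 4 control livers and 15 did so in all 4 NDEA livers; a gene that passed through the NDEA livers could hardly be seen to fall, so nothing is read from the count, and the genes are given by their own values. Ckap2l (5.51, SE 1.53, limma adjusted p = 0.0293) and Ckap2 (4.33, SE 1.10, limma adjusted p = 0.0157), which bind spindle microtubules, rose the most. Of the 17 fitted, 2 passed through the NDEA livers alone, so the adjusted p-values of this list are descriptions. Beside the counts of the lists that follow, 2.87% of all 9668 genes fitted in liver were called higher and 3.74% lower. Among genes that destabilise or sever microtubules 1 of 8 rose, Stmn1, whose product binds tubulin dimers (3.67, SE 0.99, limma adjusted p = 0.025), and 0 fell. Only 4 of these 8 reached the filter's level in all 4 control livers, and 1 passed through the NDEA livers alone. A fall could hardly be seen for such genes, so nothing is read from this count either. Of the gamma-tubulin ring genes 1 of 9 rose, Tubgcp2 (2.18, SE 0.53, limma adjusted p = 0.0113), and 0 fell, with 6 of the 9 at the filter's level in all 4 control livers. Of 18 genes that bind plus ends or the lattice, 1 rose (Clip1, 0.68, SE 0.18, limma adjusted p = 0.0201) and 1 fell (Map7d1, -0.77, SE 0.21, limma adjusted p = 0.0245). The chaperonin, prefoldin and cofactor genes that fold tubulin stayed out of the calls, with 0 of 20 called and a median of 0.02. The autoregulation list, with Ttc5, the factor that reads nascent tubulin, and the CCR4-NOT deadenylase, had 0 of 9 called and a median of -0.11. Enzymes that modify tubulin had 0 of 7 called and a median of 1.52, beside 0.01 over all genes. Of these 7, 3 reached the filter's level in all 4 control livers and 5 in all 4 NDEA livers, so nothing is read from this median. The largest estimates were those of Ttll7 (3.21, adjusted p = 0.262) and Agtpbp1 (2.33, adjusted p = 0.138) in limma, which were named after their values were seen. The whole genome's calls were split into 277 higher and 362 lower in the liver fit, but into 390 higher and 239 lower when libraries were scaled by totals alone, which moved the median of all genes to 0.12; none of the 8 fitted members changed direction under that scaling.

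In marrow 0 genes of any of these lists were called after NDEA, with medians of -0.11 for folding, -0.80 for modification, 0.03 for plus-end binding, -0.26 for destabilising, -0.35 for gamma ring, 0.08 for spindle and -0.08 for autoregulation genes, beside -0.10 over all genes. Between control tissues, where 32.8% of all genes fitted were called higher in liver and 33.4% lower, the 19 spindle genes fitted were lower in liver, with Plk1 at -7.30 and Dlgap5 at -7.23. All 19 reached the filter's level in the 4 marrow libraries but 1 did so in the 4 liver libraries, so their common direction is partly set by the filter. Of 9 destabilising genes 6 were lower, with Kif18b at -7.95 and Stmn1 at -5.88, and Fign was higher at 4.60; 3 of the 9 passed through marrow alone and 1 through liver alone. Folding and plus-end genes were called in both directions at shares near those of all genes. Of the folding genes 5 of 20 were higher in liver, led by Tbca (2.23) and Pfdn2 (2.19), and 6 lower, led by Cct7 (-1.78) and Cct4 (-1.73). Of the plus-end and lattice genes 6 of 18 were higher, led by Map7 (4.96) and Mapre3 (3.42), and 5 lower, led by Clip2 (-5.07) and Map1b (-4.16). The gamma ring list had 1 of 9 higher (Akap9, 2.75) and 4 lower, led by Mzt2b (-3.95) and Tubgcp2 (-2.34). The autoregulation list had 1 of 9 higher (Cnot7, 1.14) and 3 lower, led by Cnot8 (-1.93) and Cnot10 (-1.19), and the modification list 0 of 5 higher and 2 lower, Agtpbp1 (-2.26) and Svbp (-1.71).

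Markers of dividing cells were higher in NDEA liver, as were Tubb6, Tuba1b and Tubb5; of the other members fitted 2 were lower and 3 were not called. The cycling list summed to 273 to 401 CPM in NDEA livers and 22.3 to 92.6 CPM in control livers, and Rrm2 was at 0 in the control livers. Of its 11 fitted genes 8 rose and 0 fell, beside 2.87% of all 9668 genes fitted called higher and 3.74% lower. Only 3 of the 11 reached the filter's level in all 4 control livers, and 1 passed through the NDEA livers alone. Nothing is read from the count, and the adjusted p-values of this list are descriptions. Ccna2 (5.17, SE 1.43, limma adjusted p = 0.0289) and Top2a (4.29, SE 0.81, limma adjusted p = 0.00127) rose most. Mki67, a marker of cycling cells, stood at 36.5 ± 9.07 CPM in NDEA livers and 4.04 ± 0.946 CPM in control livers, and Cdk1, the mitotic kinase, at 28.4 ± 13.3 CPM in NDEA livers and 2.44 ± 1.72 CPM in control livers (SD, n = 4 each). In marrow Mki67 was at 125 ± 9.38 CPM in NDEA rats and 156 ± 30.6 CPM in control rats, and Cdk1 at 25.1 ± 17.7 CPM in NDEA rats and 49.6 ± 15.5 CPM in control rats (SD, n = 4 each), and 0 of 11 cycling genes were called. Cycling genes stood far higher in marrow than in liver whatever the dose, at 1553 to 1902 CPM in NDEA marrow and 1663 to 2186 CPM in control marrow. Tubb6 was at or below 8.11 CPM in the marrow libraries. The part of dividing cells in the tubulin values was not tested.

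Markers of other liver cells were called in both directions, beside 2.87% of all 9668 genes fitted called higher and 3.74% lower. Of the stellate and fibroblast list 3 of 9 rose and 0 fell, with Vim at 1.37 (SE 0.24, limma adjusted p = 0.000507) and Dcn at 1.16 (SE 0.33, limma adjusted p = 0.0352), and the list summed to 477 to 579 CPM in NDEA livers and 253 to 375 CPM in control livers, with Col1a2 and Thy1 at 0 in both. The lymphocyte list summed to 46.0 to 58.5 CPM in NDEA livers and 13.3 to 34.3 CPM in control livers, with Cd4 at 0 in both groups. Of its 3 fitted genes 1 rose (Ptprc, 1.04, SE 0.29, limma adjusted p = 0.0326). Only 1 of the 3 reached the filter's level in all 4 control livers. The cholangiocyte and progenitor list summed to 483 to 590 CPM in NDEA livers and 310.1 to 522 CPM in control livers, with Krt19 at 0 in both and 1 of 8 genes risen (Krt8, 0.50, SE 0.15, limma adjusted p = 0.0486). Macrophage markers had 1 of 9 risen (Marco, 0.64) and 1 fallen (Vsig4, -0.94), and endothelial markers 0 of 8 called. Hepatocyte markers had 2 of 11 risen, led by Ttr (0.43), and 8 fallen, led by Fabp1 (-1.15) and Apoa2 (-0.90). Of the neutrophil, platelet and erythroid lists 0 of 2, 0 of 3 and 0 of 4 fitted genes were called in liver, and no skeletal muscle gene was fitted. The part of any of these cells in the tubulin values was not tested.

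The genes whose liver profile lay nearest to that of Tubb6, by the root mean square difference of log2 CPM centred over the 8 liver libraries, were Ccnb1 (0.574), Cdk1 (0.709), Atp2b4 (0.764), Sgo2 (0.849) and Nusap1 (0.865), among 9667 genes ranked. Of these, Ccnb1, Cdk1, Sgo2 and Nusap1 are genes of mitosis, and Atp2b4 encodes a calcium pump. The order rests on control liver 4, where Tubb6, Ccnb1, Cdk1, Atp2b4 and Sgo2 had 0 counts and Nusap1 had 2. Without that library, a choice made after seeing the data, Kif20b (0.114), Cdkn1a (0.326), Odf3b (0.524), Col4a2 (0.54) and Myo7b (0.552) were nearest and Ccnb1 ranked 7, Cdk1 25, Nusap1 30 and Sgo2 34. Nearest to Tuba1b were Acad9 (0.147), Akr1d1 (0.166), App (0.172), LOC100364435 (0.179) and Cd74 (0.181), and Tubb5 ranked 18 (0.221). Without control liver 4, Tubb5 ranked 5 for Tuba1b (0.161). Tubb6 and Tuba1b were not near each other, at ranks 707 and 9469, since the measure compares the size of the change. All these likenesses are carried mainly by the difference between the groups that chose the genes and are descriptions over 8 libraries.

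**Figure D5:**
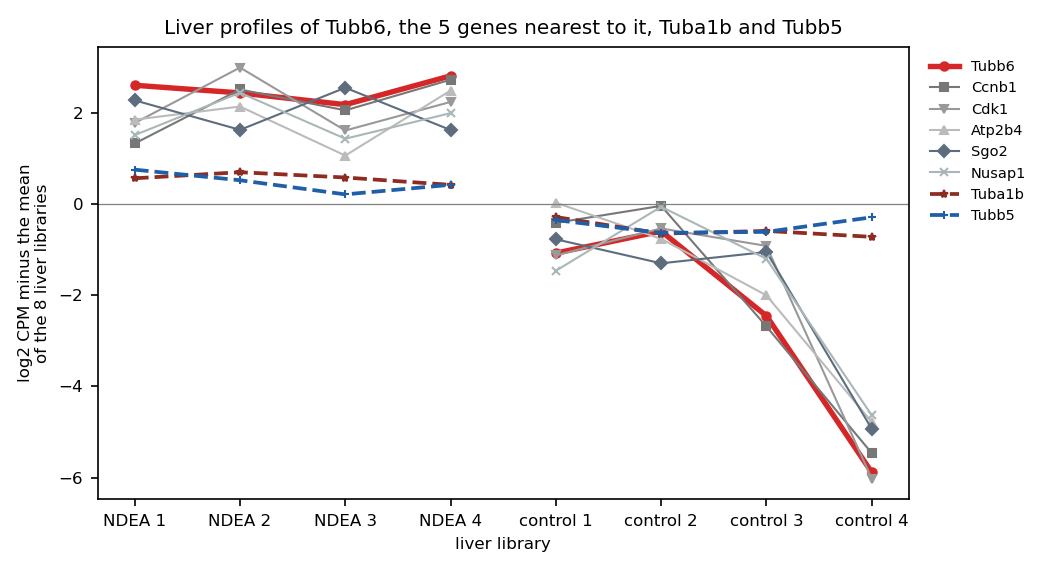
Log2 CPM of Tubb6, its 5 nearest genes, Tuba1b and Tubb5 in the 8 liver libraries, each minus its mean over them, NDEA libraries left of control libraries; lines join libraries of a group only to guide the eye. Control liver 4 lies lowest for Tubb6 and its 5 nearest genes, and Tuba1b and Tubb5 stay within a much narrower band.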

How the data were processed

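The deposited table holds whole-number reads counted per gene by the authors, without normalization; the libraries were QuantSeq 3' libraries from total RNA, per the labels' protocols. STAR and DESeq2 are named as the authors' tools in the submitters' processing notes, without versions. The counting tool, build and annotation were not given in the sources used here. Damage to the table had broken 12 records over 2 lines, and 15591 lines opened with a quote mark. All 32623 records were read after rejoining. Deposited group totals could be read in 16313 of them and equalled the summed counts, with 0 records whose totals differed. Because of that damage no count model was used, as the design foresaw.

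A gene was fitted if at least 4 libraries reached the CPM that 10 counts give in the median library and its counts summed to at least 15. Scaling used trimmed means of M values (trims 0.3 and 0.05). Limma-voom (R 4.3.3, limma 3.58.1; 0.5 counts added before logs) fitted each comparison alone, with Benjamini-Hochberg adjustment over all genes fitted and a call at 0.05. The tissue difference in the NDEA effect was fitted on all 16 libraries. The method was tested on simulated data.

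The members, lists and tests were chosen with earlier results of these data known. By rule, the text names all 10 members, other tubulins with a count, up to 2 called genes of each list in each direction, the 5 nearest profiles of Tubb6 and Tuba1b, Mki67 and Cdk1. The spindle list has 20 entries and 21 records, since Spag5 has 2. Promoters came from RefSeq (GRCr8). Alternatives were other scalings and filters, limma-trend, sample weights, 1 fit of all libraries, each library left out, and a replicate block. Floors of 3 counts cover counting error only.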

Additional observations from a re-analysis of the deposited data

Results flagged for a closer look

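In 6 of 38 groups of 4 libraries, taken over all members, 1 library stood apart from the rest by Dixon's test at 95%, which chance gives in about 1 in 20 groups. Marrow control 1, the shallowest library, stood highest for Tuba1a (187 CPM, with the gap to the next library covering 83.2% of the range) and for Tuba4a (1776 CPM, 86.6%). Liver control 3 stood lowest for Tuba4a (75.4 CPM, 83.8%). The other 3 were genes counted in a single library of the group, where the gap covers 100% of the range by construction: Tuba1c at 0.839 CPM in marrow NDEA 2 and at 0.180 CPM in liver control 3, and Tubb3 at 1.05 CPM in liver control 2.

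The NDEA effect differed between liver and marrow for 3 members in the treatment-by-tissue term of limma. The liver effect minus the marrow effect was 6.84 for Tubb6, 1.64 for Tuba1b and 1.58 for Tubb5 on the log2 scale. The liver contrast that chose the genes is part of this difference.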

How the results depend on the processing

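In liver, 3 members were called higher under every alternative but the fit of all 16 libraries (2; Tubb5 lost its call), and 2 were called lower, but 1 with library totals alone, 1 with sample quality weights, 0 in the fit of all 16 libraries and 1 to 2 when a library was left out. Tuba1a, not called, was 0.22 with the replicate block and -0.74 to 0.40 when a library was left out; Tubb2b was -0.26 to 0.97. In marrow 0 genes were called, but 2 with no filter on low counts, 69 in the fit of all 16 libraries and 0 to 323 when a library was left out, with 0 to 1 members called lower. Tubb2b was 0.13 without the 2 NDEA marrow libraries with the fewest genes. Same-numbered libraries correlated at -0.03 to 0.06 over all genes. That is too weak to show pairing, but it cannot exclude a pairing that touches some genes. A replicate block called 251 marrow genes and 3 members lower (Tubb4b, Tuba1a and Tuba4a), and in liver 857 genes against 639 without it. In marrow 2 of 4 NDEA libraries matched their own number best. Between control tissues the 1 member called higher, Tubb2a, was 0 with library totals alone and 0 to 1 when a library was left out, and Tubb2b was -0.068 to 0.99. The cause of these shifts was not tested. The other settings kept the members' directions. Depth limits Tubb6, Tubb2b, Tubb3 and Tuba1c, with few counts per library.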
